A study of Mus musculus with 6 samples.

Results

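The Ms4a genes encode small proteins that cross the plasma membrane several times, with both ends in the cytoplasm. The set described here holds 6 of them that are known from monocytes and macrophages: Ms4a6d, Ms4a6c, Ms4a6b, Ms4a4c, Ms4a4a and Ms4a7. They were chosen by symbol from a table of 14992 genes, with their values in these libraries already known. Their differences between the groups were thus part of the choice and are given as a description. Values were analysed for 5 of the 6, all but Ms4a4a, which was not analysed here.

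The study measured messenger RNA, read as full-length cDNA, in mouse bone marrow, and its title asks about PI3K signalling where Dnmt3a is lost. PI3K enzymes are lipid kinases that pass growth factor signals on to AKT. Whole marrow of Dnmt3a knockout mice, which lack a DNA methyltransferase, had been placed into irradiated C57/BL6 recipients, and the treatment protocol describes the engrafted cells as leukaemic. The recipients received either an inhibitor of PI3K alpha and PI3K beta at 75 mg/kg or vehicle, in both cases for 21 days. Both groups therefore carry the knockout marrow, the irradiated host and the same period of dosing, and no library comes from wild-type marrow. Each group holds 3 libraries, called inhibitor 1, 3 and 5 and vehicle 1, 2 and 3 after their labels. The labels do not state that each library is a separate mouse, so every spread given here is that between libraries. The marrow was not sorted, and cells of the irradiated host may remain in it.

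Members of the family differ in the cells that use them. Ms4a1 encodes CD20 of B cells, Ms4a2 the beta chain of the high-affinity IgE receptor of mast cells and basophils, and Ms4a3 marks granulocyte and monocyte progenitors. In mouse macrophages the Ms4a6d protein is known to pair with the complement receptor Vsig4, and Ms4a4a with the beta-glucan receptor Clec7a. Ms4a4c is induced by interferon, and Ms4a7 is a gene of mature and tissue macrophages.

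The 5 measured members lie on chromosome 19 (GRCm38, GENCODE M21) among 11 Ms4a genes of the table, which together span 573.4 kb. Going up the chromosome, Ms4a7 lies at 11321039 to 11336146 on the minus strand, Ms4a4c at 11404770 to 11427246 on the plus strand and Ms4a6c at 11469366 to 11482192 on the plus strand. Ms4a6b follows at 11516512 to 11531256 on the plus strand and Ms4a6d at 11586604 to 11604849 on the minus strand. Ms4a6d thus points toward the 3 plus-strand members.

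The Ms4a6 genes resemble each other closely, which matters for how reads can be assigned. Over aligned coding bases Ms4a6d was 80.6% identical to Ms4a6b and 77.0% to Ms4a6c, and Ms4a6b and Ms4a6c were 85.0% identical. With gaps counted these were 79.4%, 66.8% and 73.7%, so the closest pair depends on the measure. Ms4a7 was 59.2% identical to Ms4a6d. Ms4a4c was further from all of these, and was 91.7% identical to Ms4a4b and 86.1% to Ms4a4d, which are not among the members. The longest run of identical coding bases between Ms4a6d and Ms4a6b is shown because reads within it cannot tell the pair apart. It covers coding bases 100 to 180 in all 3 genes, crosses more than 1 exon, and lies at chr19:11601932-11603193 (minus strand) in Ms4a6d, chr19:11520438-11521703 (plus strand) in Ms4a6b and chr19:11471204-11472425 (plus strand) in Ms4a6c. Capitals mark the 4 bases of Ms4a6c that differ from the other two.
Ms4a6d: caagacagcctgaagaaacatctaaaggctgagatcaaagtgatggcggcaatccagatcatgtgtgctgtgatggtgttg
Ms4a6b: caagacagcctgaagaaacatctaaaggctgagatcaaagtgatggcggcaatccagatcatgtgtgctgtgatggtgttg
Ms4a6c: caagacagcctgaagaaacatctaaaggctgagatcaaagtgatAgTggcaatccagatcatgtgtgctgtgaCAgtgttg

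Of all windows of 50 bases in the annotated transcripts, 2.69% of those of Ms4a6d also occurred in another gene. For Ms4a6b the share in other Ms4a genes was 5.66%, for Ms4a4c 8.19% and for Ms4a7 0%. Ms4a6c stood apart, with 56.9% of its windows in other genes and 6.08% in other Ms4a genes. Of its 1792 windows, 993 also occur in BE692007, an annotated gene that overlaps it on the opposite strand. The library kit does not mark strand, so reads of Ms4a6c and BE692007 cannot be told apart where they overlap, and the level of Ms4a6c is uncertain to that extent. The annotated spans of Ms4a6b and Ms4a4c also overlap minus-strand genes (Gm19261 and Gm5692), but all 143 shared windows of Ms4a4c and 149 of the 155 of Ms4a6b were in other Ms4a genes.

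Ms4a6c and Ms4a6b also share sequence around their starts. Their RefSeq promoters (GRCm38.p6, 250 bases before to 50 after the start) are shown because this pair had the most alike profiles among the members, as described further on. Over 225 aligned bases they were 84.4% identical. Capitals mark their longest shared run, of 48 bases, which begins 49 bases before the start of Ms4a6c (chr19:11469118-11469417, plus strand) and 118 bases before that of Ms4a6b (chr19:11518309-11518608, plus strand).
Ms4a6c: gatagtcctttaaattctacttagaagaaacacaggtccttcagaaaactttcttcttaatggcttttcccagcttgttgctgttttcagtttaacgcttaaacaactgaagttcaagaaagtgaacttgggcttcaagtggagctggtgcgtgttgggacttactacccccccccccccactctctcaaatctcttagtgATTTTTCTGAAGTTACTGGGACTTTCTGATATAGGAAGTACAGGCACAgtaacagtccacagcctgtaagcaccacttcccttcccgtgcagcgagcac
Ms4a6b: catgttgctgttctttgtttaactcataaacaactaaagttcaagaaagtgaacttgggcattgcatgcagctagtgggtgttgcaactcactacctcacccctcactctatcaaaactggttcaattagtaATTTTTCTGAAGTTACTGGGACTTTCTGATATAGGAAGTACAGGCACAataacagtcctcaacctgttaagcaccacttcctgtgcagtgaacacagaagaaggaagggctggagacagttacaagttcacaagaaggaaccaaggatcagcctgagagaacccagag

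Promoters were listed for 5 of the 6 genes, all but Ms4a6d. The letters GAGGAA, the core of sites for the myeloid factor PU.1, were searched on both strands. They occurred 61 bases before the start of Ms4a4c and in 1 of the 2 listed promoters of Ms4a7, and in 28.3% of all 32851 promoters. The C/EBP-like letters TTGCNNAA, held by 10.8% of all promoters, had no match in those of the members. Neither had the core of the interferon-stimulated response element, GAAA, any 2 bases, GAAA, which 3.44% of all promoters hold. A match is a description of letters and not a site.

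Total counts were 28198638 to 35299105 in inhibitor libraries and 33762431 to 59384880 in vehicle libraries. The members were counted with 210 reads (Ms4a7 in inhibitor 1) to 23751 reads (Ms4a6c in vehicle 3) per library. Dnmt3a, the gene knocked out in the donor marrow of both groups, was counted with 413 to 1185 reads per library. It stood at 20.2, 15.4 and 15.5 CPM in inhibitors 1, 3 and 5, against 24.9, 17.3 and 18.9 CPM in vehicles 1, 2 and 3, where CPM is the read count scaled to library size by TMM. It did not pass the edgeR test (log2 fold change -0.25 ± 0.20, SE, n = 3 per group; adjusted p = 0.486), and a count over the whole gene checks no label. The tissue label was matched by its defining markers, with S100a8 and S100a9 of neutrophils at 26764 to 38016 CPM in inhibitor libraries and 8128 to 18498 CPM in vehicle libraries. Vehicle 1 stood apart from vehicles 2 and 3. It held 9604 CPM summed over 17 resident macrophage genes, against 2836 and 3157 CPM in vehicles 2 and 3, and got the lowest weight, 0.161, when libraries were weighted by their scatter. The fold changes of the members, and those of several other genes and marker lists, are also given without it. Likeness between genes was measured only with it included.

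Ms4a6d was lower in every inhibitor library than in any vehicle library. It stood at 52.5, 37.5 and 35.3 CPM in inhibitors 1, 3 and 5, against 142, 126 and 121 CPM in vehicles 1, 2 and 3. The groups did not overlap, and the lowest vehicle was above the highest inhibitor library by more than the range within either group. The means were 41.8 ± 9.37 CPM with the inhibitor and 129.5 ± 10.9 CPM with vehicle (SD, n = 3 each). This is a log2 fold change of -1.63 ± 0.18 (SE), or 3.10-fold lower with the inhibitor. Without vehicle 1 it was -1.56 ± 0.17, and over all fits with 1 library left out it ran from -1.82 to -1.52. In whole marrow, fewer cells that use a gene and less RNA of it per cell cannot be told apart, for this and every other gene here.

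Ms4a6c, a gene of monocytes and macrophages, was the most abundant member per length. It stood at 311, 251.3 and 277 CPM in inhibitors 1, 3 and 5, against 287, 448 and 378 CPM in vehicles 1, 2 and 3. Vehicle 1 lay within the range of the inhibitor libraries, and vehicles 2 and 3 lay above it. Its log2 fold change was -0.41 ± 0.19 (SE), and -0.56 ± 0.15 without vehicle 1. Without vehicle 2, the highest library, it was -0.25 ± 0.19.

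Ms4a6b, known from T cells as well as macrophages, differed least of the 3 Ms4a6 genes in these values. It had 145, 101 and 138 CPM in inhibitors 1, 3 and 5, against 130, 188 and 146 CPM in vehicles 1, 2 and 3. The groups overlapped through vehicle 1. The fitted log2 fold change was -0.28 ± 0.19 (SE). It was -0.39 ± 0.18 without vehicle 1, -0.11 ± 0.19 without vehicle 2 and -0.13 ± 0.21 without inhibitor 3.

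Ms4a4c varied more among the vehicle libraries than between the groups. It had 83.6, 54.1 and 63.8 CPM in inhibitors 1, 3 and 5, against 33.3, 124 and 97.3 CPM in vehicles 1, 2 and 3. Vehicle 1 was the lowest and vehicle 2 the highest of all 6, and their ratio was 3.73. On the log2 scale the fold change was -0.34 ± 0.43 (SE). It was -0.72 ± 0.19 without vehicle 1 and 0.04 ± 0.44 without vehicle 2, so either library decides it.

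Ms4a7 was the lowest member. It had 6.83, 8.34 and 11.8 CPM in inhibitors 1, 3 and 5, against 24.7, 14.03 and 9.50 CPM in vehicles 1, 2 and 3. Vehicle 3 lay below inhibitor 5, so the groups overlapped, and vehicle 1 was the highest of all 6. The log2 fold change was -0.83 ± 0.37 (SE), and -0.38 ± 0.26 without vehicle 1.

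**Figure D1:**
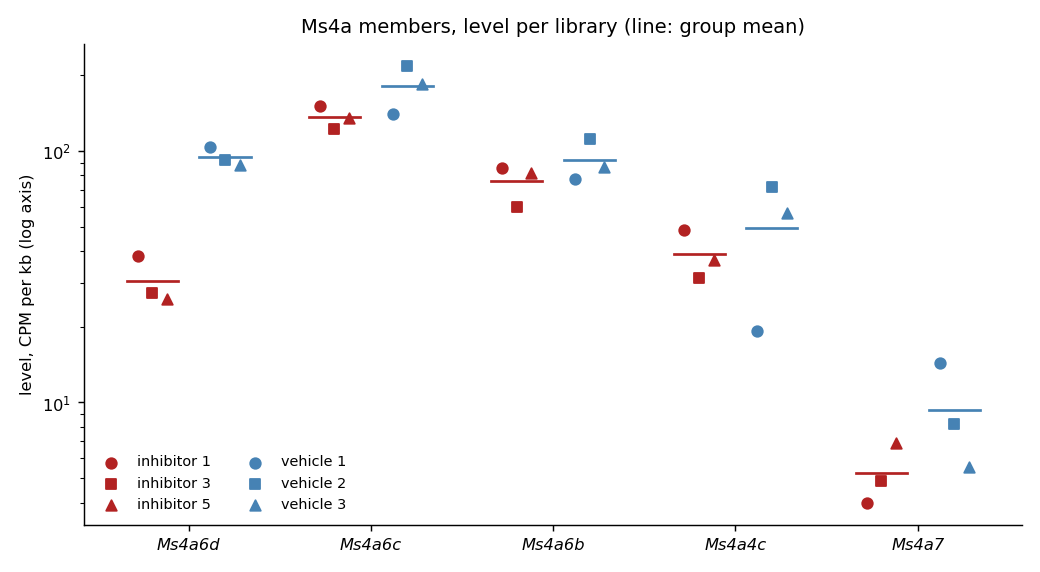
Level of each measured member in CPM per kb of gene length (log axis), 1 point per library, inhibitor libraries in red to the left of vehicle libraries in blue, with a line at each group mean. Ms4a6d has inhibitor points between 25.8 and 38.3 and vehicle points between 88.0 and 103 CPM per kb, while the groups of the other 4 overlap.

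All 5 members had values below 0, and their median log2 fold change was -0.41, beside a median of 0.00093 over all 12806 tested genes. In the edgeR test over all genes 1 of the 5, Ms4a6d, was called lower, where 1.19% of all tested genes were called lower, and 0 were called higher, where 0.633% were. That call was lost without inhibitor 1, 3 or 5 or vehicle 3, fits in which 0 of all genes were called, and with the replicate number as a block. Inhibitor 5 and vehicle 2 share their number with no other library, so the block fit takes the group difference from the remaining libraries only. Voom with quality weights called 4 of the 5 lower, where it called 11.6% of all tested genes lower and 10.7% higher. All inhibitor libraries were below all vehicle libraries in 1 of the 5, against 16.2% of tested genes, and above them in 0 of the 5, against 14.4%. Since the members were chosen with this contrast known, nothing is read from these counts. The authors' deposited table gives log2 fold changes of -1.63 for Ms4a6d, -0.41 for Ms4a6c, -0.27 for Ms4a6b, -0.34 for Ms4a4c and -0.82 for Ms4a7.

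Levels of different genes were compared per kb of gene length. In inhibitor libraries the mean levels were 136 ± 14.5 CPM per kb for Ms4a6c, 75.8 ± 13.9 for Ms4a6b, 39.0 ± 8.74 for Ms4a4c, 30.5 ± 6.83 for Ms4a6d and 5.24 ± 1.496 for Ms4a7 (SD, n = 3). In vehicle libraries they were 181 ± 39.3 CPM per kb for Ms4a6c, 94.5 ± 7.96 for Ms4a6d, 91.8 ± 17.7 for Ms4a6b, 49.3 ± 27.1 for Ms4a4c and 9.38 ± 4.56 for Ms4a7. Ms4a6d was thus below Ms4a6c, Ms4a6b and Ms4a4c in each of the 3 inhibitor libraries. In vehicles 1 and 3 it was below Ms4a6c alone, and in vehicle 2 below Ms4a6c and Ms4a6b. The means of Ms4a6d and Ms4a6b in vehicle differed by less than the larger of their SDs, as did those of Ms4a4c and Ms4a6d with the inhibitor, although Ms4a4c was above Ms4a6d in every inhibitor library.

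The makeup of the summed Ms4a6 level differed between the groups. The share of Ms4a6d, per kb, was 13.9%, 13.03% and 10.6% in inhibitors 1, 3 and 5, against 32.3%, 21.8% and 24.5% in vehicles 1, 2 and 3. The ratio of Ms4a6d to Ms4a6b per kb was 0.446, 0.456 and 0.316 in inhibitors 1, 3 and 5, against 1.34, 0.826 and 1.01 in vehicles 1, 2 and 3. Neither the share nor this ratio overlapped between the groups. The shares of the other two did not overlap either, at 54.9% to 58.4% for Ms4a6c in inhibitor libraries and 43.7% to 51.8% in vehicle libraries, and at 28.6% to 33.7% for Ms4a6b in inhibitor libraries and 24.1% to 26.4% in vehicle libraries. The 3 shares add up to the whole, so they are not independent. The ratio of Ms4a6c to Ms4a6b did overlap, at 1.76, 2.04 and 1.65 in inhibitor libraries and 1.81, 1.96 and 2.12 in vehicle libraries. A ratio shows unequal levels and not which of the 2 genes differs.

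**Figure D2:**
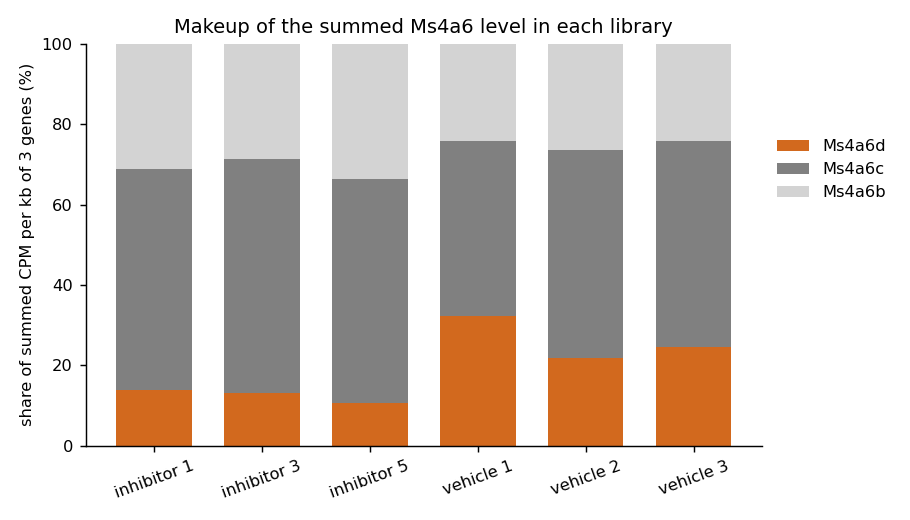
Share of Ms4a6d, Ms4a6c and Ms4a6b in their summed level (CPM per kb) in each library, inhibitor libraries on the left and vehicle libraries on the right. Ms4a6d takes 10.6% to 13.9% in the inhibitor libraries and 21.8% to 32.3% in the vehicle libraries.

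The members did not vary together among the vehicle libraries. The level of vehicle 1 over the mean of vehicles 2 and 3 was 2.10 for Ms4a7, 1.15 for Ms4a6d, 0.778 for Ms4a6b, 0.695 for Ms4a6c and 0.301 for Ms4a4c. Within the inhibitor group the highest library was 1.24 times the lowest for Ms4a6c and 1.73 times for Ms4a7, with the others between.

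The likeness of 2 genes was measured as the root mean square difference of their log2(CPM + 1) profiles over the 6 libraries, each centred on its own mean, where 0 is identical. Between members it was smallest for Ms4a6b and Ms4a6c, at 0.124, and largest for Ms4a4c and Ms4a7, at 1.01. Ms4a6d was at 0.666 from Ms4a7, 0.676 from Ms4a6c, 0.726 from Ms4a6b and 0.976 from Ms4a4c. Among all family genes the one most like Ms4a6d was Ms4a8a, at 0.309, followed by Tmem176a at 0.401. Those most like Ms4a7 were Tmem176b at 0.343 and Tmem176a at 0.346. Ms4a6b and Ms4a6c share 109 windows of 50 bases, and the part of shared sequence in their likeness was not tested.

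Among 9692 other genes that averaged 5 CPM or more, the profile most like that of Ms4a6d was that of Lima1, a gene for an actin-binding protein, at 0.051. Lima1 stood at 14.7, 10.2 and 9.82 CPM in inhibitors 1, 3 and 5, against 39.6, 33.0 and 34.5 CPM in vehicles 1, 2 and 3. Ctsc, the protease cathepsin C, followed at 0.117, with 311, 241 and 236 CPM in inhibitors 1, 3 and 5, against 724, 795 and 716 CPM in vehicles 1, 2 and 3. Fcgr1, the high-affinity receptor for IgG, came next at 0.131, with 26.8, 21.7 and 20.2 CPM in inhibitor libraries, against 94.2, 85.8 and 71.1 CPM in vehicle libraries. In all 3, as in Ms4a6d, inhibitor 1 was the highest of its group and the groups did not overlap. The 3 were picked by likeness over these same libraries, so this sharing follows from the choice.

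The genes most like Ms4a6c were Pogk at 0.039, Sdf2l1, of the endoplasmic reticulum, at 0.073 and Tor3a, a torsin ATPase, at 0.079. For Ms4a6b they were Gimap8, a GTPase of lymphoid cells, at 0.068, the tyrosine phosphatase gene Ptpn4 at 0.092 and Zfp280c at 0.097. The profile of Ms4a4c, low in vehicle 1, was nearest to Btla, an inhibitory receptor of lymphocytes, at 0.085, then to C1galt1c1, a chaperone of O-glycan synthesis, at 0.120 and the receptor kinase gene Met at 0.138. Btla had 21.7, 15.4 and 18.97 CPM in inhibitors 1, 3 and 5, against 8.41, 31.8 and 25.5 CPM in vehicles 1, 2 and 3. For Ms4a7, high in vehicle 1, they were the granzyme inhibitor gene Serpinb9 at 0.157, the thrombin receptor gene F2r at 0.160 and the adhesion gene Vcam1 at 0.162. Vcam1, which macrophages and stroma of marrow use, had 154, 196 and 210.0 CPM in inhibitor libraries, against 569, 338 and 238 CPM in vehicle libraries. The 3 genes were the same for Ms4a6d and Ms4a6c when the minimum was 1 CPM, while 1 of 3 remained for Ms4a6b, 2 for Ms4a4c and 0 for Ms4a7.

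The other members of the family, taken by name, are set beside the members. They are what a choice made with these data known left out, so they are no independent comparison. Of 8 tested genes, the other 6 Ms4a genes and the related Tmem176a and Tmem176b, 1 fell and 0 rose in the edgeR test over all genes, against the 1.19% and 0.633% of all tested genes. Their median log2 fold change was -0.63. DESeq2 called 3 of the 8 lower and 1 higher, against 7.24% and 4.91% of all genes. Ms4a8a fell, a gene known from alternatively activated macrophages. It stood at 9.63, 8.30 and 8.30 CPM in inhibitors 1, 3 and 5, against 43.2, 19.3 and 22.8 CPM in vehicles 1, 2 and 3. Its groups did not overlap, and vehicle 1 was at 2.05 times the mean of the other vehicles. The log2 fold change was -1.70 ± 0.31 (SE; edgeR adjusted p = 0.0473). Without vehicle 1 it was -1.27 (adjusted p = 0.00514), while leaving out any one of the other 5 libraries gave adjusted p from 0.0509 to 0.180, above the threshold of 0.05. Over all alternatives its adjusted p ran from 1.26e-05 to 0.180.

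Tmem176a and Tmem176b, which overlap head to head on chromosome 6 and whose products are intracellular membrane channels of myeloid cells, had nearly equal fold changes and levels per kb. Their means were 24.8 CPM per kb for Tmem176a and 25.7 for Tmem176b in inhibitor libraries, against 57.0 and 58.1 CPM per kb in vehicle libraries. Tmem176b stood at 54.0, 54.8 and 49.3 CPM in inhibitors 1, 3 and 5, against 180, 89.7 and 87.8 CPM in vehicles 1, 2 and 3. Tmem176b had a log2 fold change of -1.18 ± 0.28 (SE; adjusted p by edgeR = 0.0761), and -1.20 ± 0.28 for Tmem176a (adjusted p = 0.0690). Without vehicle 1 both passed, at -0.75 (adjusted p = 0.00881) and -0.80 (adjusted p = 0.00791). Over all alternatives their adjusted p ran from 0.00135 to 0.223. Reads in the overlap of the 2 genes cannot be told apart without strand.

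Ms4a3 differed in the other direction. It stood at 287, 246 and 341 CPM in inhibitors 1, 3 and 5, against 119, 199.998 and 149 CPM in vehicles 1, 2 and 3. All inhibitor libraries were above all vehicle libraries. Its log2 fold change, 0.90 ± 0.22 (SE), did not pass (edgeR adjusted p = 0.0769). DESeq2 and voom called it, at adjusted p = 0.00507 and 0.0228, and over its alternatives the adjusted p ran from 0.00507 to 0.263.

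The remaining family genes did not pass by edgeR or DESeq2 and their groups overlapped. Ms4a1 had 1.59, 2.20 and 4.98 CPM in inhibitors 1, 3 and 5, against 3.08, 6.99 and 11.4 CPM in vehicles 1, 2 and 3 (log2 fold change -1.29 ± 0.57). Voom called Ms4a1 lower, at -1.86 (adjusted p = 0.00839; over all alternatives 0.00839 to 0.511). With 1 library left out its value ran from -1.93 (without inhibitor 5) to -0.78 (without vehicle 3). Ms4a2 had a log2 fold change of 0.15 ± 0.18 and Ms4a4b, a gene of T cells, one of -0.08 ± 0.28. Ms4a4d had means of 1.08 CPM in inhibitor and 0.845 CPM in vehicle libraries, too few reads to compare closely. The values of Ms4a4b and Ms4a4c are uncertain where their alike sequences share reads.

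**Figure D3:**
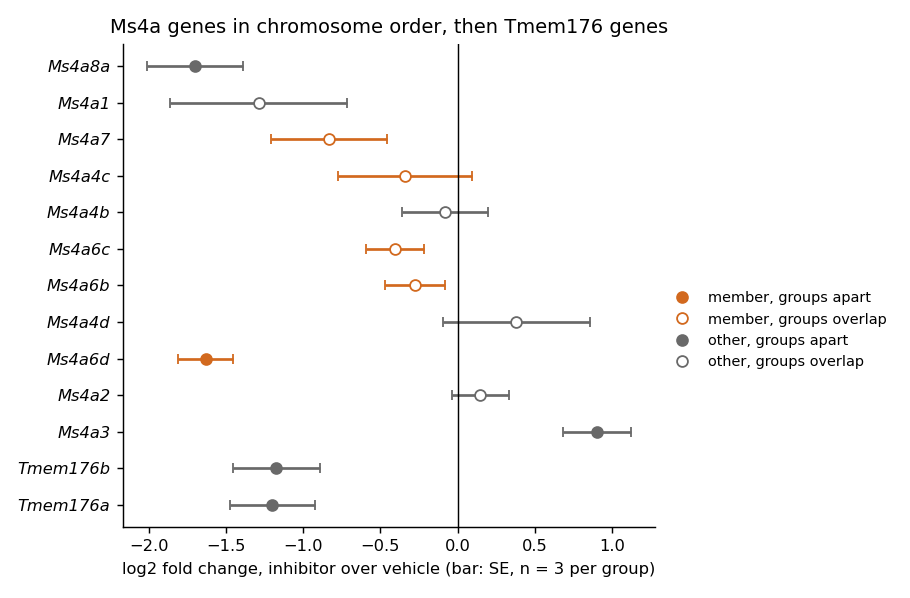
Log2 fold change, inhibitor over vehicle, of the 11 Ms4a genes in chromosome order and of the Tmem176 genes, with SE bars (n = 3 per group). Filled points, where the groups do not overlap, are Ms4a6d at -1.63, Ms4a8a at -1.70, both Tmem176 genes and, above 0, Ms4a3 at 0.90.

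Genes around Ms4a6d on the chromosome were compared by the distance of their starts. The nearest family genes on either side of it by start, Ms4a2 and Ms4a4d, had log2 fold changes of 0.15 ± 0.18 and 0.38 ± 0.48 (SE). With 1 library left out these ran from 0.0060 to 0.29 for Ms4a2, lowest without vehicle 1, and from 0.05 to 0.71 for Ms4a4d, lowest without inhibitor 5. Ms4a3, whose start lies 36.0 kb from that of Ms4a6d, had 0.90 ± 0.22. Of 23 genes of the table that are not Ms4a genes and lie within 500 kb of the stretch, 19 were tested, with 0 higher and 1 lower by edgeR and a median of -0.18. Before adjustment, 1 was higher and 5 lower at p under 0.05, against 9.68% and 11.9% over all tested genes, and DESeq2 called 0 higher and 3 lower. The one that fell by edgeR was Tmem109, a gene for a membrane protein of the nucleus and endoplasmic reticulum. It stood at 31.6, 34.1 and 29.6 CPM in inhibitors 1, 3 and 5, against 49.2, 49.2 and 56.5 CPM in vehicles 1, 2 and 3, or -0.70 ± 0.12 on the log2 scale (SE; adjusted p by edgeR = 0.0428). Its call held without vehicle 1 and was lost without any one of the other 5 libraries (adjusted p 0.0698 to 0.177; over all alternatives 0.000108 to 0.424). The nearest tested genes outside the stretch were AW112010 at -0.66 ± 0.25 (adjusted p = 0.181) and Oosp1 at 0.73 ± 0.27 (adjusted p = 0.182).

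**Figure D4:**
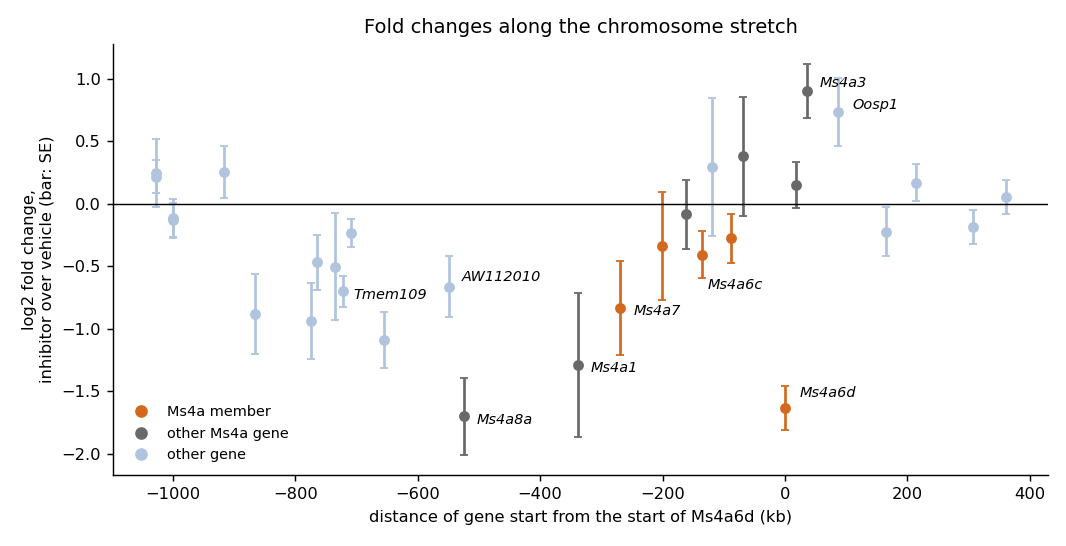
Log2 fold change, inhibitor over vehicle (SE bars), of Ms4a genes and of the 19 tested neighbours against the distance of their start from the start of Ms4a6d, in kb. Ms4a6d at -1.63 ± 0.18 stands between Ms4a4d at 0.38 ± 0.48 and Ms4a2 at 0.15 ± 0.18.

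Products known to act with Ms4a proteins were read from a list of 8 genes. By edgeR 1 fell and 0 rose, against 1.19% and 0.633% of all tested genes, and the median log2 fold change of the list was 0.11. DESeq2 called 3 lower and 2 higher, against 7.24% and 4.91%. Vsig4, the partner of the Ms4a6d protein, fell. It stood at 4.46, 12.3 and 8.24 CPM in inhibitors 1, 3 and 5, against 357, 63.8 and 89.8 CPM in vehicles 1, 2 and 3. The log2 fold change was -4.35 ± 0.76 (SE; edgeR adjusted p = 0.0434), and -3.21 without vehicle 1. Its call was lost without inhibitor 1, 3 or 5 or vehicle 3 (adjusted p 0.0966 to 0.169; over all alternatives 4.01e-05 to 0.169).

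Trem2, a lipid receptor of macrophages whose soluble form is tied to MS4A genes in human, stood at 11.9, 11.1 and 14.7 CPM in inhibitors 1, 3 and 5, against 27.3, 22.6 and 18.8 CPM in vehicles 1, 2 and 3. The groups did not overlap, and the log2 fold change was -0.87 ± 0.19 (edgeR adjusted p = 0.0661). Its adaptor Tyrobp differed the other way, at 0.42 ± 0.14 (edgeR adjusted p = 0.156). DESeq2 and voom called Tyrobp higher, at adjusted p = 0.0485 and 0.0281, and over all alternatives it ran from 0.0281 to 0.695. Fcer1g, an adaptor of Fc receptors, had 0.05 ± 0.14. Cd86, a costimulatory ligand of antigen-presenting cells, had -1.13 ± 0.25 (adjusted p = 0.0638). Without vehicle 1 Trem2 and Cd86 passed, at -0.72 (adjusted p = 0.0403) and -0.80 (adjusted p = 0.0162); over all alternatives the adjusted p ran from 0.00189 to 0.330 for Trem2 and from 0.00103 to 0.217 for Cd86. Clec7a, the partner of Ms4a4a, had 340, 223 and 201 CPM in inhibitors 1, 3 and 5, against 203, 253 and 221 CPM in vehicles 1, 2 and 3, and overlapped between the groups (0.18 ± 0.22). Fcer1a, the alpha chain of the IgE receptor that holds Ms4a2, had 0.79 ± 0.22 (edgeR adjusted p = 0.102). DESeq2 and voom called Fcer1a higher, at adjusted p = 0.01999 and 0.0122, and over all alternatives it ran from 0.0122 to 0.330. Tnfrsf18, the receptor GITR that pairs with Ms4a4b in T cells, had 0.18 ± 0.21.

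Marker genes of cell types that could carry the members also differed between the groups. Of 17 resident macrophage genes, 6 fell by edgeR (Adgre1, Cd5l, Mertk, Spic, Vsig4 and Maf) and 0 rose, with a median log2 fold change of -2.65. By edgeR 1.19% of all tested genes fell and 0.633% rose. DESeq2 called 16 of the 17 lower and 0 higher, against 7.24% and 4.91% of all tested genes. For 16 of the 17, all but Slc40a1, the iron exporter gene, every inhibitor library was below every vehicle library, against 16.2% of tested genes. The summed level of the 17 was 1044 to 1378 CPM in inhibitor libraries and 2836 to 9604 CPM in vehicle libraries. Without vehicle 1 the median was -1.75 and 15 of 17 fell, where 4.89% of all tested genes fell and 3.1% rose. C1qa, a complement gene of macrophages, stood at 57.3, 129 and 106 CPM in inhibitors 1, 3 and 5, against 1195, 287 and 356 CPM in vehicles 1, 2 and 3. The part of this difference in the values of Ms4a6d, Ms4a7 and Ms4a8a was not tested.

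Of 10 classical monocyte genes 0 were called by edgeR, with 1 higher and 4 lower before adjustment (p under 0.05; 9.68% and 11.9% over all tested genes), the same numbers by DESeq2, and a median of -0.61. Without vehicle 1 the median was -0.75 and 6 fell. Their summed level overlapped, at 8810 to 13097 CPM in inhibitor and 7463 to 11044 CPM in vehicle libraries, and Chil3 was the most abundant gene in it. Chil3 had 8458, 7722 and 5664 CPM in inhibitors 1, 3 and 5, against 3395, 5146 and 4957 CPM in vehicles 1, 2 and 3. Its log2 fold change was 0.69 ± 0.25 (SE), 1 of 3 above 0 in the list, where 7 were below 0. F13a1, a coagulation factor gene of monocytes, had 862, 714 and 639 CPM in inhibitors 1, 3 and 5, against 732, 1246 and 1181 CPM in vehicles 1, 2 and 3, with vehicle 1 in the inhibitor range as for Ms4a6c. Of 10 non-classical monocyte genes 3 fell (Cx3cr1, Treml4 and Adgre4) and 0 rose by edgeR, against 1.19% and 0.633% of all tested genes. The median of the list was -0.98, and -0.55 without vehicle 1. Before adjustment 1 was higher and 4 lower, against 9.68% and 11.9%, and DESeq2 called 1 higher and 3 lower, against 4.91% and 7.24%. In 4 every inhibitor library was below every vehicle library, against 16.2% of tested genes, and in 1, Spn, above, against 14.4%. Spn had 486, 487 and 446 CPM in inhibitors 1, 3 and 5, against 277, 375 and 344 CPM in vehicles 1, 2 and 3. The summed level of the list was 851 to 1016 CPM in inhibitor and 935 to 1204 CPM in vehicle libraries.

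Of 10 interferon response genes, which share their inducer with Ms4a4c, 1 fell, Irf7, and 0 rose by edgeR (1.19% and 0.633% over all tested genes). DESeq2 called 2 lower and 0 higher, against 7.24% and 4.91% of all tested genes. All 10 had log2 fold changes below 0, and the median was -0.68, or -0.93 without vehicle 1. Irf7, a transcription factor gene of that response, stood at 66.1, 45.9 and 44.8 CPM in inhibitors 1, 3 and 5, against 143, 124 and 93.2 CPM in vehicles 1, 2 and 3. The summed level of the list was 281, 160 and 172 CPM in inhibitors 1, 3 and 5, against 316, 451 and 269 CPM in vehicles 1, 2 and 3. The sum was highest in vehicle 2, as were Ms4a4c, Ms4a6c and Ms4a6b. In vehicle 1 the sum was above every inhibitor library, whereas Ms4a4c was at its lowest there. Irf7 taken by itself was highest in vehicle 1.

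Genes of granulocytes differed in the other direction. Of 11 neutrophil genes 1 rose, Camp, and 0 fell, with a median of 0.77. In 6 of the 11 every inhibitor library was above every vehicle library, and the others overlapped. The summed level of the list was 101474 to 125792 CPM in inhibitor and 40876 to 66404 CPM in vehicle libraries, with S100a9 and S100a8 the most abundant. Of 7 genes of granulocyte and monocyte progenitors, Ms4a3 among them, 2 rose by edgeR, Elane and Gfi1, and 0 fell, with a median of 1.01. DESeq2 called 6 of these 7 higher and 0 lower. In all 7 every inhibitor library was above every vehicle library. Over all tested genes this held in 14.4%, and edgeR called 0.633% higher and 1.19% lower. Without vehicle 1 the medians were 0.51 and 0.81.

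Of 8 B cell genes, which include Ms4a1, 2 rose by edgeR (Vpreb1 and Igll1, of the surrogate light chain of B cell precursors) and 0 fell, with a median of 1.81. Before adjustment 7 were higher and 0 lower, DESeq2 called 6 higher and 0 lower, and voom called 2 higher and 1 lower. Over all tested genes edgeR called 0.633% higher and 1.19% lower, and DESeq2 4.91% and 7.24%. In 6 of the 8 every inhibitor library was above every vehicle library, against 14.4% of tested genes, while Ms4a1 had a value below 0. The summed level was 103 to 318 CPM in inhibitor and 38.4 to 85.4 CPM in vehicle libraries. Of 6 NK cell genes 1 fell (Prf1) and 0 rose, with 0 higher and 3 lower before adjustment, 0 and 1 by DESeq2, and a median of -0.53. Of 8 dendritic cell genes 1 rose (Cd209a) and 0 fell, with 2 higher and 3 lower before adjustment, 1 and 1 by DESeq2, and a median of -0.31. The 10 tested T cell genes had 0 calls, with 0 higher and 7 lower before adjustment (p under 0.05; 9.68% and 11.9% over all tested genes), 0 and 4 by DESeq2 (4.91% and 7.24%), and a median of -0.83. The 6 basophil and mast cell genes had 0 calls, with 1 and 1 at an unadjusted p under 0.05, 1 and 0 by DESeq2, and a median of 0.10. The 8 stroma and endothelium genes had 0 calls, with 0 and 4 at an unadjusted p under 0.05, 0 and 2 by DESeq2, and a median of -1.08, which was -0.44 without vehicle 1. The 6 erythroid genes had 0 calls by either tool and 0 at an unadjusted p under 0.05, with a median of -0.50, which was 0.02 without vehicle 1. No marker of any list was at 0 counts in all 6 libraries.

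**Figure D5:**
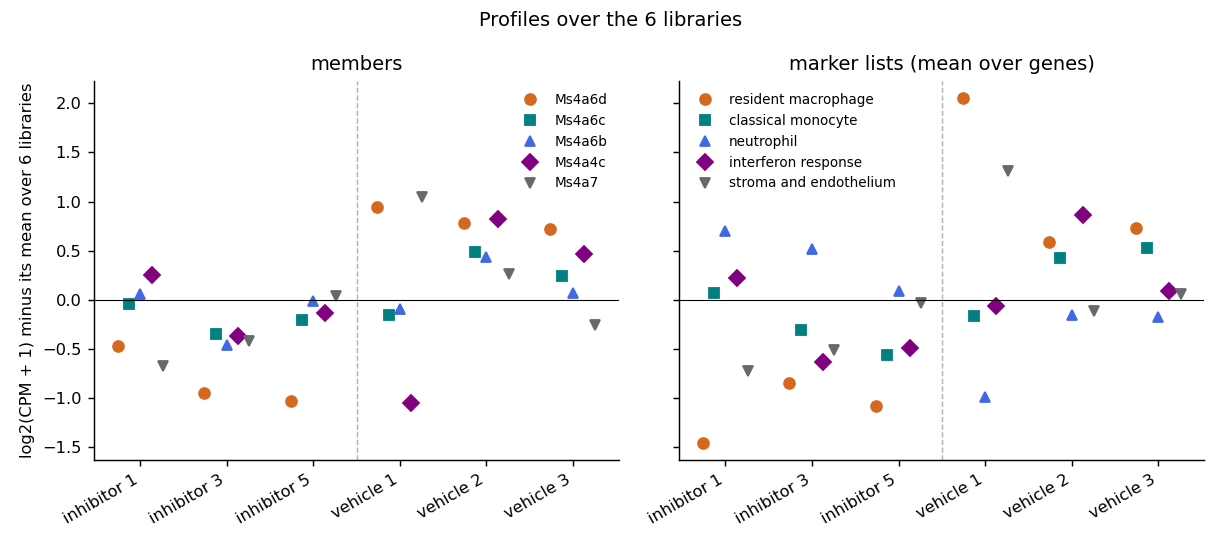
Log2(CPM + 1) of each member (left panel) and mean log2(CPM + 1) of 5 marker lists (right panel), each minus its own mean over the 6 libraries, inhibitor libraries left of the dashed line and vehicle libraries right of it. In vehicle 1, Ms4a7 and the resident macrophage and stroma lists are at their highest and Ms4a4c and the neutrophil list at their lowest.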

How the data were processed

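RNA was measured in 6 mouse marrow libraries, 3 with inhibitor and 3 with vehicle. Per the labels' protocols, RNA was column-purified and turned into cDNA with SMART-Seq v4 and into libraries with Nextera XT, a kit without strand information. STAR, featureCounts and mm10 are named, without versions, per the submitters' processing notes. The authors deposited raw read counts for 14992 genes, with gene lengths in bases. The same deposited table holds the authors' fold change (a ratio), log2 fold change, p-value and adjusted p-value, per the file headers, with the test not given in the sources used here. Its 14992 empty lines were skipped.

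The treatment label set the groups. The test was that of edgeR 4.0.16 (R 4.3.3) on group alone, with filterByExpr (12806 genes tested, 2186 left out), TMM scaling, the quasi-likelihood F test and Benjamini-Hochberg adjustment at 0.05. The SE is the log2 fold change over the square root of F. The biological coefficient of variation was 25.2%, and totals were 28198638 to 59384880 counts per library. The most alike pair of libraries, vehicles 2 and 3, had a chi-square per degree of freedom of 29.6, so none was counted as a duplicate. The steps were tested on simulated data.

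The members, the lists, the tests and the rule for named genes were chosen with earlier results of these data known. Genes named are the members, Dnmt3a, all other Ms4a and Tmem176 genes, the partner list, up to 3 of the most abundant genes of a marker list, the 3 genes most like each member, and among neighbours within 500 kb the nearest tested on either side and every called one. Called genes of marker lists, and Slc40a1 as the one overlapping macrophage gene, were named after their values were seen. The marker lists were resident macrophage, classical and non-classical monocyte, neutrophil, granulocyte and monocyte progenitor, B, T and NK cell, basophil and mast cell, dendritic cell, interferon response, erythroid, and stroma and endothelium; Trac of the T cell and Epb42 of the erythroid list were not analysed here. Likeness used log2(CPM + 1). Coding sequences came from GENCODE M21 (aligned with Biopython 1.88) and promoters from RefSeq (GRCm38.p6), and 9 of the 11 Ms4a genes had a promoter entry.

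Alternatives were DESeq2 size factors (RLE), upper-quartile scaling, no filter, a filter of 5 CPM in 3 libraries, the DESeq2 1.42.0 Wald test, voom with quality weights (limma 3.58.1), the replicate number as a block, each library left out, raw library totals for levels, and for likeness a pseudocount of 0.1 or a minimum of 1 CPM. The marker lists without vehicle 1 were added after seeing the data.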

Additional observations from a re-analysis of the deposited data

How the results depend on the processing

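With 3 libraries a group, single genes with small differences cannot be resolved, and the log2 fold changes of Ms4a6c, Ms4a6b, Ms4a4c and Ms4a7 each moved by over 1.5 times when single libraries were left out. RLE, upper-quartile scaling, no filter and the filter of 5 CPM left 1 member called lower, between 72 and 89 genes called higher and 154 to 165 lower, and 1 call each among other family, neighbour and partner genes. DESeq2 called 628 genes higher and 926 lower, 1 member, 4 other family genes, 3 neighbours and 5 partners. Voom with quality weights called 1374 higher and 1483 lower, 4 members, 5 other family genes, 5 neighbours and 5 partners, with a member median of -0.63. With the replicate number as a block, 0 genes were called higher and 7 lower, with 0 members, 0 other family genes, 0 neighbours and 0 partners, while 1438 genes had an unadjusted p under 0.05. Inhibitor 5 and vehicle 2 are alone in their blocks, so they did not enter the group difference of that fit. The log2 fold change of Ms4a4c, which was not called, changed sign to 0.24 ± 0.47 with the block and to 0.04 ± 0.44 without vehicle 2. Vehicle 2 entered neither of these values. Only numbers 1 and 3 are shared between the groups, and the deviations of their libraries from the group means correlated at -0.514 and -0.103. Pairs of unlike number ran from -0.476 to 0.505, so these values cannot decide whether the libraries were paired. The labels give no pairing beyond the number.

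With 1 library left out, edgeR called 0 to 401 genes higher and 0 to 633 lower, 0 to 1 members, 0 to 3 other family genes, 0 to 2 neighbours and 0 to 3 partners, and the member median ran from -0.56 to -0.25. The 401 and 633 were without vehicle 1, and 0 were called without vehicle 3 or inhibitor 1, 3 or 5, where 2398, 2174, 1832 and 2223 genes had an unadjusted p under 0.05. Why these counts differ between settings was not tested. CPM on raw library totals moved no member's level by 1 SD. Protein identity was not run, and coding identity was used in its place. A further 524 comparisons set a single gene or likeness list against an alternative, with members judged by the shift in log2 fold change and not by their calls. Of these, 478 kept their side of the threshold or moved by less than the spread. Another 26 passed only under the alternative and 17 only in the edgeR fit on group alone over all libraries, while 3 moved further and 0 called values changed sign. The 478 include the fits in which Ms4a6d lost its call, as its log2 fold change moved by less than the spread.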
